A study of Mus musculus with 8 samples.

Results

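The genes described here form a raised block on chromosome 12 of the mouse hepatoma line Hepa 1-6, an established liver cancer cell line. They are the 131 protein-coding genes that start between positions 85300000 and 108500000 (GRCm38), out of 47434 genes measured. For this choice a gene's start is its lowest coordinate, on either strand. They were compared with 53 protein-coding genes in the flanks, which reach out to 83000000 on the centromeric side and to 109000000 on the telomeric side. Fos, Tgfb3, Ifi27, Ifi27l2a and the Serpina genes were left out of both sets. RNA was sequenced in 4 libraries of G9a knockout cells and in 4 of wild-type cells, from which the knockout cells were derived. All 8 libraries were otherwise labelled alike, with no treatment or time point, and the labels give neither the lesion nor whether the knockout cells are 1 clone. Nor do they name separate cultures within a group, so spread within a group may be technical. In bulk RNA, fewer cells of a type and less RNA per cell cannot be told apart.

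The limits of the block were drawn from the comparison of knockout and wild type itself. Its fold changes in that comparison are therefore given as a description, without a test, and counts of members that passed the test across all genes describe what the choice of members already held. A gene is said to have risen or fallen when it passed an adjusted p under 0.05 in edgeR's quasi-likelihood test over all 15840 genes tested.

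G9a, encoded by Ehmt2, adds mono- and dimethyl marks to lysine 9 of histone H3, a modification associated with silent genes. Marks of this kind can span several neighbouring genes. Position along a chromosome is 1 way to group genes, and whether such marks have a part in this block was not tested. The data used here measure RNA alone, and DNA and histone marks were not analysed here.

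The libraries held between 58256100 and 75025236 counts. Levels are given in CPM, which are counts after scaling each library to 1e+06. Ehmt2 was at 116.7, 116.7, 119.8 and 118.8 CPM in the knockout libraries and at 345.4, 307.1, 297.6 and 306.6 CPM in the wild-type libraries, so that no knockout library reached a wild-type level. Of 12 hepatocyte and hepatoma markers, 5 could be tested, of which 2 rose and 1 fell. Their summed level was 1334 to 1495 CPM in the knockout and 1173 to 1259 CPM in the wild type, and albumin had 0 counts in all libraries. Of 10 fibroblast and stellate cell markers, 7 could be tested and 5 rose, with a summed level of 431.7 to 463.9 CPM against 109.4 to 119.6 CPM, of which Col3a1 made up 428.6 ± 12.8 and 106.8 ± 4.83 CPM. The leukocyte list (11 genes, 3 tested, 1 rose) summed to at most 2.45 CPM in the knockout and 3.22 CPM in the wild type, and the endothelial list (7 genes, 5 tested, 1 rose) to at most 7.38 and 4.98 CPM. The counts of these 4 lists stand beside 23.6% risen and 23.6% fallen over all 15840 genes tested. The part of these markers in the results below was not tested.

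The stretches of DNA ahead of several genes are shown first, because they let genes at the limits and within the block be compared by sequence. By lowest coordinate, Nek9 and Evl are the nearest tested genes outside the centromeric and the telomeric limit, and Tmed10 is the nearest inside the centromeric limit. Nek9 is on the minus strand and spans the limit, so the stretch shown for it lies within the interval. Lgmn and Ift43 had some of the largest rises, and Sel1l and Setd3 are abundant members with narrow spread between libraries. Each sequence runs 5′ to 3′ toward the gene's start, is taken from RefSeq promoter windows on GRCm38.p6, and ends where the annotated gene begins. Those of Nek9, Evl and Sel1l hold 250 bases. Fewer are left for Ift43 (230), Setd3 (220), Lgmn (165) and Tmed10 (120). Capitals mark matches to a GC box (GGGCGG) or a CCAAT box (CCAAT) on either strand.

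Nek9, chr12:85339363-85339612, minus strand: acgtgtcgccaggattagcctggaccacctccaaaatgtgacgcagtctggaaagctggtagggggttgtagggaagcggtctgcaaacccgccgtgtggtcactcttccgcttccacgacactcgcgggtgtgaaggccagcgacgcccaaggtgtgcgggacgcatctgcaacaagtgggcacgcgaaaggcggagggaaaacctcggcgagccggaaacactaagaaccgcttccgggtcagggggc
Tmed10, chr12:85374848-85374967, minus strand: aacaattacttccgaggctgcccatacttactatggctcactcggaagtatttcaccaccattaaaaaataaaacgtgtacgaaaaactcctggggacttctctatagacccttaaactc
Evl, chr12:108554470-108554719, plus strand: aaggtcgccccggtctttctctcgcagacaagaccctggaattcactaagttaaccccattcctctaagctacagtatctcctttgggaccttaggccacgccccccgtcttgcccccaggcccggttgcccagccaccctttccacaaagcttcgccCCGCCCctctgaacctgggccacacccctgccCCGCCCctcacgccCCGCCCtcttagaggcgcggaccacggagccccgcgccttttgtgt
Lgmn, chr12:102439814-102439978, minus strand: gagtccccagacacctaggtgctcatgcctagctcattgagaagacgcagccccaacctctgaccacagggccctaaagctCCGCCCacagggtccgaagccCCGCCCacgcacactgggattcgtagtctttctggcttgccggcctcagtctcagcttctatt
Ift43, chr12:86082311-86082540, plus strand: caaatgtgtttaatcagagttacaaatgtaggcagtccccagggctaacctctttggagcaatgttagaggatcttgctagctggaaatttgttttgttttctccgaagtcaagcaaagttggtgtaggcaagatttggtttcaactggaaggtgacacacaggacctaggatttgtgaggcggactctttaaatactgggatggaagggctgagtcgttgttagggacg
Sel1l, chr12:91849158-91849407, minus strand: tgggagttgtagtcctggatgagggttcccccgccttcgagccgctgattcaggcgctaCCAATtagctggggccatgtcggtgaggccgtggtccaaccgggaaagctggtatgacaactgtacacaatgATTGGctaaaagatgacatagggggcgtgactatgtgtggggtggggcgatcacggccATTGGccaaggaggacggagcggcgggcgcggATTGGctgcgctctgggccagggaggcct
Setd3, chr12:108179315-108179534, minus strand: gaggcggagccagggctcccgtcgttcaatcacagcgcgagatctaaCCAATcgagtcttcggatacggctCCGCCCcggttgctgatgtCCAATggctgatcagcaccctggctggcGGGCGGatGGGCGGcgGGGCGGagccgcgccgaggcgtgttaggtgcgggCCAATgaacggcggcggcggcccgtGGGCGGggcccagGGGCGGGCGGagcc

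Of the 62 members with a mean of at least 5 CPM, 59 matched a promoter window by symbol, as did 21 of 27 such genes in the flanks. Windows of 250 bases before the start were searched on both strands for the GC box, the CCAAT box, the TATA box (TATAAA) and the cyclic AMP response element (TGACGTCA), and matches of the GC box can overlap one another. A GC box was present in 54.2% of block windows, 57.1% of flank windows and 32.7% of the 32851 windows of all genes. The CCAAT box was present in 42.4%, 47.6% and 33.8% and the TATA box in 1.69%, 9.52% and 12.4%. The cyclic AMP response element was present in 3.39% of block windows, none of the 21 flank windows and 1.55% of all. The median GC content was 61.2% in the block, 58% in the flanks and 52.4% over all windows. The block and flank shares were closer to each other than to the share over all windows for the GC box and the CCAAT box. The 32851 windows belong to 27025 genes of any level, whereas block and flank windows are of genes with at least 5 CPM. The comparison with all windows is therefore not at a like level of expression. A match is a description of letters and not a binding site. The printed stretches of the raised genes were not of 1 kind: the Lgmn sequence shown holds 2 GC boxes, that of Ift43 holds none of the motifs, that of Sel1l holds 4 CCAAT boxes, and that of Setd3 holds 7 GC boxes and 3 CCAAT boxes. Tmed10 also holds none. Of the genes counted as flanks, Evl holds 3 GC boxes and Nek9, whose stretch lies within the interval, none of the motifs. The printed stretches differ in length, so these counts cannot be set against one another directly.

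Across the block, most genes with enough counts were higher in the knockout, by amounts that varied from gene to gene. Of the 131 members, 82 had enough counts to be tested, 64 rose, 0 fell and 18 did not pass. Over all genes tested 47.2% were called, as 23.6% rose and 23.6% fell, and since the block was drawn from the same comparison nothing is read from the difference. The median log2 fold change (knockout minus wild type) of the tested members was 0.55, with quartiles of 0.35 and 0.85, which is a median ratio of 1.47. In 62 of the 82, all 4 knockout libraries lay above all 4 wild-type libraries, against 22.5% of all genes tested. Of the 62 members with at least 5 CPM, 55 rose and 7 did not pass, with a median of 0.55 and quartiles of 0.35 and 0.75. Among all 9977 genes at that level 25.3% rose, 32.9% fell and the median was -0.05.

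**Figure D1:**
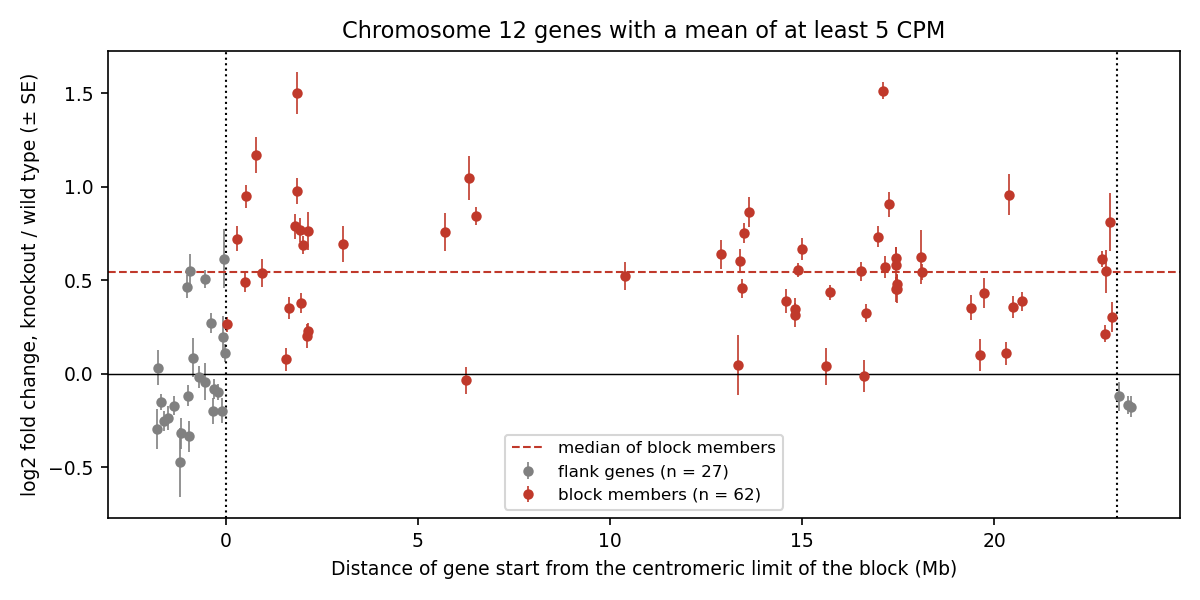
Log2 fold change (knockout over wild type, ± SE, n = 4 libraries per group) of each chromosome 12 gene averaging at least 5 CPM against the distance of its start from the centromeric limit, in Mb. Block members in red center on 0.55 between the dotted limits, and flank genes in grey have a median of -0.12.

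The flanks did not share the shift. Of their 53 genes, 46 on the centromeric and 7 on the telomeric side, 41 were tested, 8 rose, 14 fell and 19 did not pass, with a median of -0.08. On the rest of the chromosome, 253 genes on the centromeric side of the flanks were tested, of which 61 rose and 62 fell (median -0.01), and of 60 on the telomeric side, 12 rose and 13 fell (median 0.10). The flanks are defined by the same comparison, so the difference of 0.63 between the block and flank medians is a description.

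Each knockout library showed the shift. Relative to the wild-type mean of each gene, the median over the 62 members was 0.53, 0.56, 0.51 and 0.54 on the log2 scale in the knockout libraries and between -0.03 and 0.01 in the wild-type libraries. In the flanks the knockout medians were -0.08, -0.12, -0.13 and -0.11. Within the block the spread between libraries of a group was small beside the distance between the groups. The members together took 0.599% ± 0.006 of all counts in the knockout and 0.408% ± 0.001 in the wild type (SD, n = 4 per group), a ratio of 1.47, whereas the flank genes took 0.156% ± 0.002 and 0.152% ± 0.002. Of the 4 knockout libraries, replicate 2 was the highest in 28 of the 62 members (45.2%), and it was also the highest most often among the other genes at that level (30.7%).

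**Figure D2:**
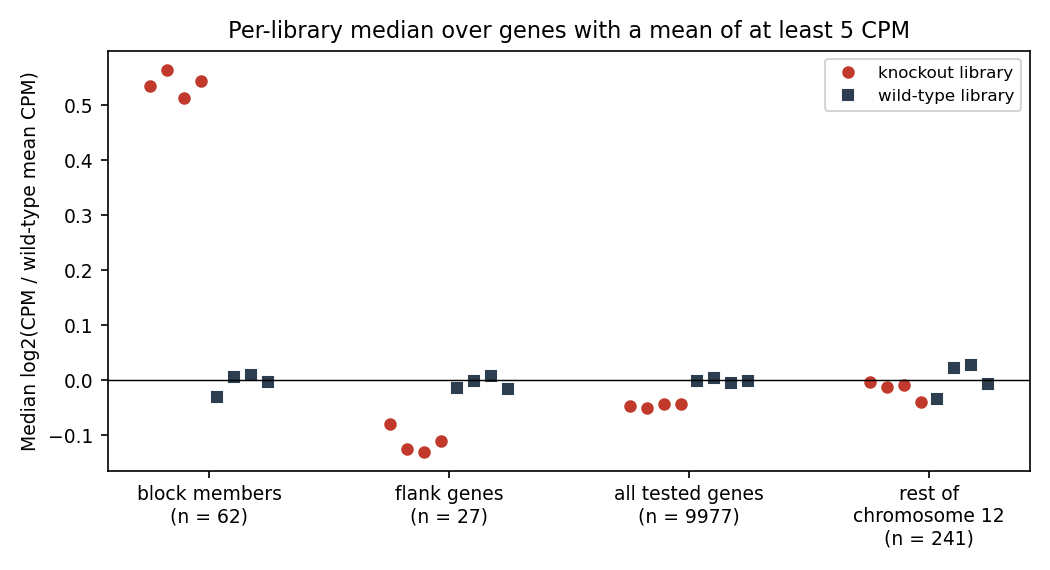
Median over genes of log2 CPM relative to each gene's wild-type mean, for each library (red circles, knockout; dark squares, wild type), in the block, the flanks, all genes and the rest of chromosome 12, each limited to genes averaging at least 5 CPM. Knockout libraries lie between 0.51 and 0.56 in the block, and between -0.13 and -0.08 in the flanks.

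The centromeric limit, drawn from this same comparison, lies between the lowest coordinates of the close neighbours Nek9 and Tmed10. Nek9, on the minus strand, spans the limit, and its transcription starts inside it. With position by transcription start, 83 members were tested and 64 rose. The 95% intervals of their ratios, 1.01 to 1.15 for Nek9 and 1.13 to 1.27 for Tmed10, overlap. Nek9 (chromosome 12, 85299514 to 85339362), a kinase of spindle assembly, was at 102.7, 109.6, 100.8 and 103.9 CPM in the knockout and 100.4, 96.2, 92.9 and 96.3 CPM in the wild type. All knockout libraries were higher than all wild-type libraries by a narrow margin, with a log2 fold change of 0.11 ± 0.05 (SE). The gene did not pass, although it passed under 6 alternatives, among them DESeq2 (0.12) and library totals alone (0.19). Tmed10 (85340614 to 85374847), a cargo receptor of vesicles between the endoplasmic reticulum and the Golgi, is the next gene and the first inside the block. It was at 161.1, 153.3, 156.2 and 150.8 CPM against 125.7, 130.2, 130.9 and 130.5 CPM, with no overlap and a log2 fold change of 0.26 ± 0.04. Jdp2 (85599027 to 85639878), a repressor of AP-1 transcription factors, was at 32.8, 32.9, 32.6 and 33.0 CPM against 20.7, 18.9, 18.1 and 21.95 CPM. The knockout libraries of Jdp2 were almost equal and all above the wild type, and the log2 fold change was 0.72 ± 0.07.

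The limit was not a clean step on that side. In the centromeric flank 8 of 34 tested genes rose (23.5%, near the 23.6% over all genes tested), and all 8 lay in the last 1014768 bp before the limit, where 24 genes were tested, 4 fell and 12 did not pass. Several of these rises were as large as those of the block. Npc2, a cholesterol transfer protein of lysosomes chosen after its values were seen, was at 177.4 ± 5.74 and 124.8 ± 4.88 CPM, with no overlap and a log2 fold change of 0.51 ± 0.05. The others beside Acyp1, also named after their values were seen, were Ptgr2 (0.47 ± 0.06), Entpd5 (0.55 ± 0.09), Arel1 (0.27 ± 0.05), Prox2 (0.60 ± 0.18) and, at about 1 CPM, Ltbp2 (2.99 ± 0.41) and Pgf (1.79 ± 0.31). Acyp1, an acylphosphatase gene just outside the limit, rose from 4.16 ± 0.83 to 6.37 ± 0.95 CPM (SD, n = 4 per group), a log2 fold change of 0.62 ± 0.16, although the lowest knockout value, 5.02 CPM, lay below the highest wild-type value, 5.35 CPM. Its neighbour Zc2hc1c was at 1.53 ± 0.28 and 1.41 ± 0.16 CPM and did not pass. Flvcr2, a membrane transporter just inside, was at 0.776 ± 0.266 and 0.428 ± 0.130 CPM and did not pass either (log2 fold change 0.86 ± 0.36), although it passed with library totals alone (0.94) and without knockout replicate 3 (1.02).

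At the telomeric limit, drawn in the same way, the level changed between Eml1 and Evl. Hhipl1 (108306270 to 108330869) was at 12.2, 17.3, 10.2 and 12.4 CPM in the knockout and at 9.14, 6.16, 7.12 and 7.27 CPM in the wild type. The groups did not overlap and the log2 fold change was 0.81 ± 0.16, with knockout replicate 2 the highest library. Eml1 (108370957 to 108539617), a microtubule-binding protein, was at 37.0, 38.6, 33.5 and 41.5 CPM against 33.5, 31.8, 27.3 and 29.4 CPM. Knockout replicate 3 and wild-type replicate 1 met at 33.5 CPM, and the log2 fold change was 0.30 ± 0.08. Evl (108554720 to 108688516), an actin regulator of the Ena/VASP family, was at 15.01, 18.0, 16.6 and 15.5 CPM against 16.9, 18.7, 17.9 and 17.4 CPM. Its groups overlapped and it did not pass (log2 fold change -0.12 ± 0.08), although it was called lower from its highest transcript alone (-0.44).

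Further out, Yy1, a transcription factor that can activate or repress, was at 93.8, 93.05, 89.99 and 84.1 CPM against 100.5, 101.4, 104.5 and 99.5 CPM. All knockout libraries were lower, by a log2 fold change of -0.17 ± 0.05 (edgeR, adjusted p = 0.0106), a call that was lost when libraries were scaled by their totals alone (-0.09). Between them Degs2, a sphingolipid desaturase, was near 2 CPM in both groups (log2 fold change -0.15 ± 0.22). Just inside the limit Cyp46a1, a cholesterol hydroxylase of neurons, was at 1.31 ± 0.48 and 0.706 ± 0.337 CPM and did not pass (0.89 ± 0.37), although it passed with DESeq2 (0.90) and without knockout replicate 4 (1.08), wild-type replicate 1 (1.10) or wild-type replicate 4 (1.11).

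**Figure D3:**
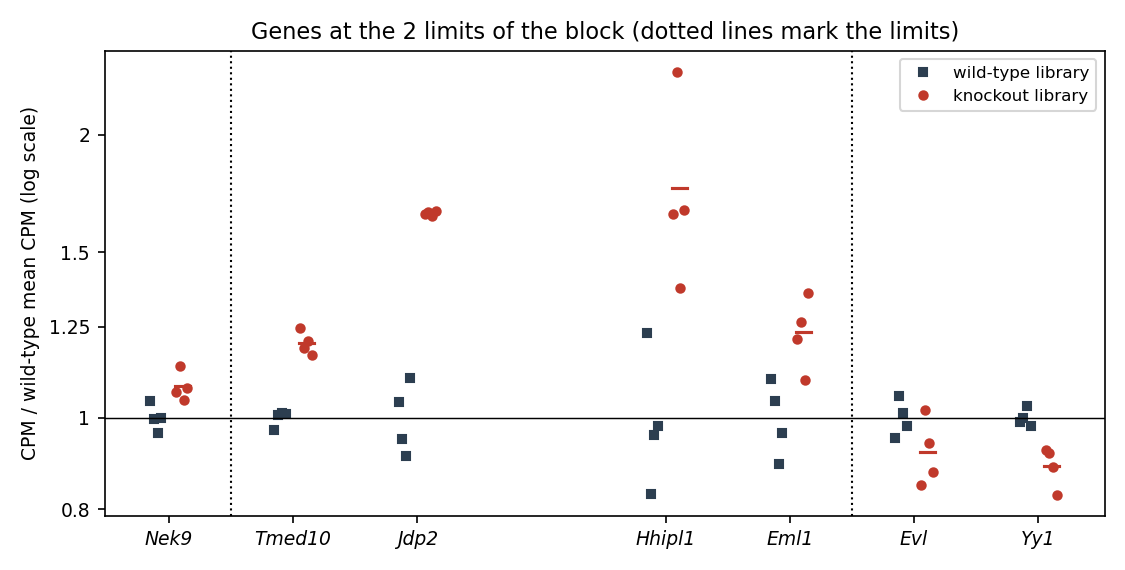
CPM of each library divided by the wild-type mean of that gene, on a log axis, for genes next to the limits of the block (squares, wild type; circles, knockout; bars, knockout means; dotted lines, limits). Tmed10 and Jdp2 inside the centromeric limit lie above 1 in every knockout library. Nek9, counted outside it by its lowest coordinate, lies close to 1, and Yy1 beyond the telomeric limit lies below 1.

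Members with a part in protein quality control rose in 7 of 8 tested cases, with none falling and a median of 0.55. The median of all genes tested was 0.0037, beside which the medians of the following lists can be set. Their counts stand beside 23.6% risen over all genes tested and 78.0% over the tested members of the block. The lists describe members of a block chosen for its rise, and nothing about a function is read from them. Psmc1 (100110154 to 100123405), an ATPase at the base of the 26S proteasome, was at 316.8, 292.4, 329.3 and 346.7 CPM against 273.9, 238.5, 245.6 and 252.4 CPM (log2 fold change 0.35 ± 0.06). Sel1l (91806043 to 91849157), the adaptor of the ubiquitin ligase that removes misfolded proteins from the endoplasmic reticulum, was at 135.1, 143.4, 130.5 and 129.1 CPM against 72.1, 78.4, 75.04 and 74.3 CPM. Neither gene had overlapping groups, and the Sel1l change of 0.84 ± 0.05 was the larger. Ahsa1, an activator of the HSP90 ATPase, rose by 0.38 ± 0.05 and Ubr7, a protein of the N-recognin family, by 0.48 ± 0.05. The member of this list that did not pass was Atxn3, a deubiquitinase whose repeat expansion causes a spinocerebellar ataxia. It was at 43.0, 37.4, 38.3 and 36.1 CPM against 32.5, 43.0, 39.7 and 40.9 CPM, with fully overlapping groups (-0.01 ± 0.08). Not every gene listed fits the list's name: Gskip, which rose by 0.96 ± 0.11, binds the kinase GSK3, and Fbln5, which was not tested, encodes a matrix protein.

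Of 11 tested genes of the Golgi, vesicles, lysosome and autophagy, 9 rose, none fell and the median was 0.73. Lgmn (102394084 to 102439813), the lysosomal protease legumain, had the largest rise of the members with at least 5 CPM. It was at 141.9, 136.9, 140.2 and 141.6 CPM in the knockout against 51.7, 48.4, 48.4 and 47.7 CPM in the wild type, a log2 fold change of 1.51 ± 0.05. The groups were far apart for their spread. Tmed8, a relative of the p24 cargo receptors, went from 22.1 ± 1.99 to 43.5 ± 1.63 CPM and Ston2, an adaptor of endocytosis, from 11.1 ± 0.81 to 22.9 ± 4.47 CPM. Rin3, an activator of the endosomal GTPase Rab5, rose by 0.73 ± 0.06. Atg2b, a lipid transfer protein of autophagosomes, was at 74.9 ± 6.52 and 69.5 ± 2.73 CPM and did not pass. Of the 13 genes listed, Slc24a4, Catsperb and Flvcr2 encode transport or channel proteins of the cell membrane. Slc24a4 and Catsperb were not tested, and Flvcr2 did not pass (0.86 ± 0.36).

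Genes of RNA processing and translation rose in 9 of 10 tested cases, with smaller sizes (median 0.36). Papola (105784694 to 105838944), the canonical poly(A) polymerase, was at 446.2, 437.4, 409.3 and 398.0 CPM against 294.8, 354.9, 345.8 and 323.6 CPM. The groups did not overlap and the log2 fold change was 0.36 ± 0.06. Dicer1 (104687742 to 104751952), the RNase that releases mature microRNAs, was at 118.0, 129.2, 110.8 and 104.3 CPM against 85.9, 99.3, 89.7 and 86.8 CPM. It too was higher in every knockout library, by 0.35 ± 0.07. Cpsf2, a subunit of the cleavage and polyadenylation factor, rose by 0.32 ± 0.05, the helicase gene Ddx24 by 0.54 ± 0.04 and Zc3h14, which binds poly(A) tails, by 0.46 ± 0.05. Snw1, a splicing factor, and Ccnk, the cyclin partner of CDK12, rose least, by 0.23 ± 0.04 and 0.22 ± 0.04. Tcl1, which is listed here but is known as a coactivator of the kinase AKT, had 0 counts in all libraries.

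Among genes of transcription, chromatin and DNA repair, 8 of 11 tested rose and none fell (median 0.39). Setd3 (108106431 to 108179314), which methylates a histidine of actin, was at 133.9, 130.2, 135.6 and 131.5 CPM against 87.1, 87.2, 86.7 and 86.3 CPM. Its libraries were among the tightest of the genes described and its log2 fold change was 0.61 ± 0.04. Gtf2a1, a subunit of the general factor TFIIA, was at 50.6, 46.8, 49.4 and 42.9 CPM against 43.8, 46.4, 53.8 and 50.0 CPM. Its groups overlapped fully (-0.03 ± 0.07), while its neighbour Ston2 rose. Irf2bpl, a nuclear protein with a RING domain, was at 89.1 ± 3.87 and 84.5 ± 7.10 CPM and did not pass. Foxn3, a forkhead transcription factor, was at 3.17 ± 0.74 and 3.21 ± 0.73 CPM and did not pass either. Among the 8 that rose were Ppp4r3a, a regulatory subunit of protein phosphatase 4, by 0.44 ± 0.04, the kinase gene Vrk1 by 0.39 ± 0.05 and the demethylase gene Alkbh1 by 0.20 ± 0.06, a call that was lost without knockout replicate 3 (0.17).

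Of 8 tested genes of mitochondria and metabolism, 7 rose (median 0.84). Sptlc2 (87305058 to 87388355), a subunit of the enzyme that begins sphingolipid synthesis, was at 106.3, 109.7, 114.5 and 105.3 CPM against 67.0, 65.1, 68.5 and 69.5 CPM (log2 fold change 0.69 ± 0.05). Gstz1 (87147165 to 87164723), an enzyme of tyrosine breakdown in liver, was at 20.2, 18.5, 19.98 and 20.8 CPM against 5.40, 7.79, 8.03 and 6.81 CPM. Every knockout library of Gstz1 was well above every wild-type library, and the log2 fold change of 1.5 ± 0.11 was second to that of Lgmn at this level of expression. Glrx5, a mitochondrial protein of iron-sulfur cluster assembly, rose by 0.43 ± 0.08, Itpk1, an inositol phosphate kinase, by 0.91 ± 0.07 and Pomt2, which mannosylates proteins, by 0.79 ± 0.07.

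Genes of the cytoskeleton, centrosome and cilia rose in 7 of 9 tested cases (median 0.75). Ift43 (86082541 to 86162459), a subunit of the intraflagellar transport machinery, was at 14.9, 13.0, 16.3 and 15.5 CPM against 7.10, 6.89, 6.09 and 6.41 CPM (log2 fold change 1.17 ± 0.10). Ttc8 (98920574 to 98983238), a subunit of the BBSome that carries membrane proteins into cilia, was at 34.2, 33.6, 35.1 and 30.4 CPM against 16.2, 20.5, 19.3 and 17.02 CPM (0.87 ± 0.08). Both had every knockout library above every wild-type library. Ttll5, which adds glutamate chains to tubulin, rose by 0.95 ± 0.06 and Eml5 by 0.75 ± 0.05. Syne3, a nesprin of the nuclear envelope, was at 68.5, 90.55, 68.1 and 76.6 CPM against 77.8, 68.8, 66.0 and 71.0 CPM, and only knockout replicate 2 stood above the wild type (0.10 ± 0.09). Spata7, a protein of the photoreceptor cilium, was at 5.32 ± 0.62 and 5.15 ± 1.17 CPM and did not pass.

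Signaling and apoptosis genes rose in 5 of 10 tested cases (median 0.45), Itpk1 among them. Ptpn21, a protein tyrosine phosphatase, went from 33.3 ± 1.11 to 50.6 ± 4.16 CPM. Ccdc88c, a regulator of Wnt signaling, was at 53.0, 71.7, 49.5 and 57.2 CPM against 60.0, 58.6, 50.7 and 55.5 CPM. Its groups overlapped (0.04 ± 0.10), and without knockout replicate 2 the value turned to -0.07. Of 9 genes with neuronal and endocrine roles, 3 were tested and 2 rose: Flrt2, an adhesion protein of axon guidance, from 24.3 ± 0.90 to 34.9 ± 3.47 CPM, and Ngb, which encodes neuroglobin, from 0.094 ± 0.086 to 0.624 ± 0.206 CPM. Nrxn3, a synaptic adhesion gene and among the longest in the interval, was at 0.201 ± 0.120 and 0.353 ± 0.115 CPM and did not pass.

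Members in no list gave the same picture, with 11 of 13 tested rising and none falling (median 0.67). The 7 members with at least 5 CPM that did not pass were Gtf2a1, Atxn3, Ccdc88c, Spata7, Irf2bpl, Syne3 and Atg2b, and they were spread over the interval. Gtf2a1 (91555262 to 91590487) is followed by Ston2, and Atg2b (105616136 to 105685211) overlaps Gskip.

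The size of the rise varied with expression level. Over the members with at least 5 CPM, the 21 with the lowest mean level over all 8 libraries had a median log2 fold change of 0.76, the 21 in the middle 0.45 and the 20 with the highest level 0.41. Among members under 5 CPM, 20 were tested, 9 rose (45%, beside 23.6% over all genes tested) and 11 did not pass, with values between -0.81 and 5.37. The largest fitted changes came from genes near silence in the wild type. The filter asks for enough counts in as many libraries as 1 group holds, so such genes were tested only because of their knockout counts. A rise was then the only likely call, and these genes, Ngb among them, are part of the 64 that rose. Asb2, chosen after its values were seen, had 203 counts over the knockout libraries and 4 over the wild type, all of those in replicate 1. Ifi27l2b, also chosen after its values were seen and next to the excluded interferon genes Ifi27 and Ifi27l2a, had 245 and 7 counts. Efcab11, a calcium-binding protein gene, was at 5.35 ± 1.07 and 2.20 ± 0.20 CPM (log2 fold change 1.29 ± 0.16).

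**Figure D4:**
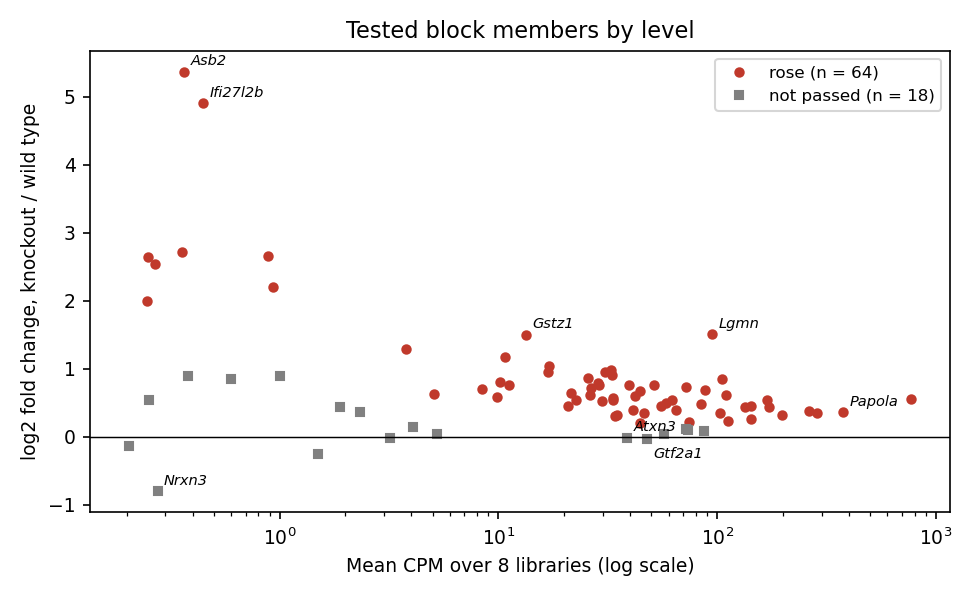
Log2 fold change of the 82 tested members against their mean CPM over the 8 libraries (log axis), with the 64 that rose in red and the 18 that did not pass in grey. Values spread between -0.81 and 5.37 at low levels, and abundant members such as Papola (0.36) lie in a narrow band above 0.

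The remaining 49 members were too weakly expressed to be tested. Of these, 30 had 0 counts in all 8 libraries, which allows up to 3 counts in a library, or 0.0401 to 0.0516 CPM. Counts were seen for 19, of which 17 had more in the knockout and 2 more in the wild type, and 13 had none in the wild type. The same shares over all untested genes were not computed, so nothing is read from these counts. The highest knockout total was 63 counts, for the oocyte gene Oog1, which had 0 in the wild type and was chosen after its values were seen. Oog1 lies in a run of related genes, and reads of close copies could have been assigned to any of them. Kcnk13, a potassium channel gene singled out in the same way, had 49 counts over 3 of the knockout libraries and 0 in the wild type. No test was made of these weakly expressed genes.

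The rise was present along the whole block and its median was higher toward the centromeric end. In 4 groups of neighbours from the centromeric to the telomeric end, the medians of members with at least 5 CPM were 0.71, 0.56, 0.56 and 0.43, with 15, 14, 13 and 13 genes that rose out of 16, 16, 15 and 15. The most centromeric group also had the lowest wild-type levels (median 25.7 CPM) and the most telomeric the highest (69.1 CPM), so position and level cannot be told apart here. The longest gap without a member, 3.89 Mb between Sel1l and Flrt2, was crossed without a change of sign. Genes on the plus strand had a median of 0.54 and those on the minus strand 0.55. By length, the 21 shortest, 21 middle and 20 longest genes had medians of 0.49, 0.46 and 0.64.

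Neighbours that start back to back did not always change by the same amount. There were 5 pairs of members with at least 5 CPM whose starts lay within 1000 bp on opposite strands, and some partners were chosen after their values were seen (Erg28, Vipas39, Slirp and Gon7). Setd3 and Ccnk, with starts 265 bp apart, had log2 fold changes of 0.61 ± 0.04 and 0.22 ± 0.04. Ttll5 and Erg28, whose starts are closer still, had 0.95 ± 0.06 and 0.49 ± 0.05. Both genes of every pair were higher in the knockout, but in 4 of the 5 pairs they differed by 0.39 to 0.56. Vipas39 and Ahsa1 had 0.77 ± 0.06 and 0.38 ± 0.05, and Slirp and Alkbh1 0.76 ± 0.10 and 0.20 ± 0.06. Gon7 and Ubr7 were closest, with 0.58 ± 0.10 and 0.48 ± 0.05. Slirp overlaps both Alkbh1 and Snw1, Gon7 overlaps the gene Gm20604, and Pomt2 overlaps Gstz1, and such reads could have been assigned to either gene.

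In all 62 members with at least 5 CPM the transcript with the highest share was the same in both groups, which is trivially so for the 26 with 1 transcript. Over the 36 members with several transcripts, the median change of its share of the length-scaled counts was 3.06 percentage points and the largest 23.4, and in 5 members the shares of the groups did not overlap. The largest of these changes was in Tdp1, a DNA repair gene chosen after its values were seen, whose main transcript held 60.2% ± 11.04 (SD, n = 4) of them in the knockout and 77.6% ± 5.04 in the wild type. When the highest transcript alone was used for each gene, 54 members rose, and Sel1l, Eml1, Alkbh1, Ptpn21, Ngb and the flank gene Acyp1 lost their calls. The interval also holds 130 noncoding genes and pseudogenes, of which 16 were tested, 4 rose and none fell, with a median of 0.45. That is 25% risen, beside 23.6% over all 15840 genes tested, of which 12831 are protein-coding. The share over noncoding genes and pseudogenes elsewhere was not computed, so nothing is read from the 25%. The median of 0.45, with quartiles of -0.06 and 0.94, stands beside 0.55, with quartiles of 0.35 and 0.85, for the tested members.

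The products of several members work in complexes whose other genes lie outside the block, and those genes were not part of its choice. Their counts are to be read beside the 25.3% risen and 32.9% fallen among all genes with at least 5 CPM. Of 17 other genes of the 26S proteasome, 1 rose and 13 fell (median -0.24), whereas Psmc1 rose by 0.35 ± 0.06. Psmc3, another ATPase subunit of the base, was at 192.0 ± 8.71 and 298.9 ± 5.45 CPM, a log2 fold change of -0.64 ± 0.04 (edgeR, adjusted p = 9.38e-08). Of 16 other genes of mRNA 3′ end processing, 2 rose and 9 fell (median -0.17), among them Cpsf6 (-0.25 ± 0.05), which was not called from its highest transcript alone. With libraries scaled by their totals alone, 10 proteasome genes and 5 genes of 3′ end processing fell, and 3 of the latter rose.

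Around Sel1l, 3 of 15 genes of endoplasmic reticulum-associated degradation rose and 3 fell (median 0.01), counts near the share over all genes tested. Vcp, the ATPase that extracts substrates, was at 823.7 ± 7.81 against 946.4 ± 19.4 CPM. None of 14 other microRNA processing genes rose and 5 fell (35.7%, near the share over all genes at that level; median -0.13). Ago2, which carries the microRNA made by Dicer1, was lower at 332.0 ± 45.2 against 418.6 ± 15.1 CPM (-0.33 ± 0.08, adjusted p = 0.00265). Among 12 genes of the HSP90 machinery that Ahsa1 serves, 2 rose and 7 fell (median -0.20), with Hsp90ab1 at 5726 ± 182 against 7426 ± 254 CPM. Hsp90aa1, which lies on chromosome 12 beyond the telomeric limit, was also lower (-0.44 ± 0.05, adjusted p = 9.99e-06).

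Smaller groups were mixed. Of 11 tested genes of sphingolipid synthesis, 3 rose and 2 fell (median -0.05, or 0.03 with library totals alone, when 4 rose and 1 fell), with the desaturase gene Degs1 up by 0.36 ± 0.05. Among 7 tested p24 cargo receptor genes 3 rose and none fell (median 0.07). Tmed2 rose by 0.32 ± 0.04, slightly more than Tmed10, and Tmed9 by 0.22 ± 0.08, a call that several alternatives lost. None of 9 other BBSome genes rose and 2 fell (median -0.04, or 0.04 with library totals alone, when 1 rose), and Bbs2 was at 9.87 ± 1.11 and 8.73 ± 0.20 CPM without passing. Whether a member and its partners differ in their change was not tested gene by gene.

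**Figure D5:**
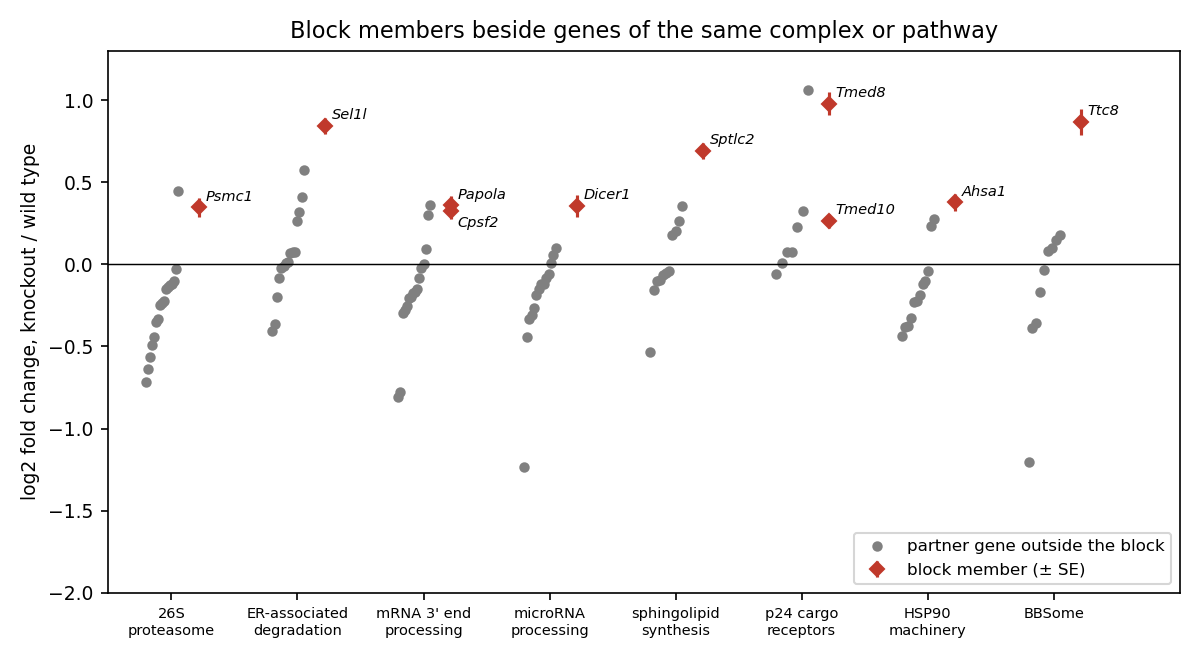
Log2 fold change (knockout over wild type) of block members (red diamonds, ± SE, n = 4 libraries per group) beside genes of the same complex or pathway that lie outside the block (grey circles). Psmc1, Papola, Cpsf2, Dicer1 and Ahsa1 lie between 0.32 and 0.38, while the medians of their partners lie between -0.24 and -0.13. In the other groups shown, the medians of the partners lie between -0.05 and 0.07. The median of all genes with at least 5 CPM is -0.05.

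Most of the left-out genes of the interval that could be tested also rose, and nothing is read from this. Tgfb3, which encodes a growth factor of the TGF-beta family, rose from 14.3 ± 0.51 to 39.9 ± 2.85 CPM, and Ifi27, an interferon-stimulated gene, from 6.62 ± 1.21 to 53.1 ± 3.69 CPM. Ifi27l2a was at 1.67 ± 0.24 and 0.035 ± 0.045 CPM. Near silence in the wild type, it was tested only because of its knockout counts, and a rise was its only likely call. Fos, an immediate early gene, was at 4.36 ± 0.19 and 3.90 ± 0.77 CPM and did not pass. Of 23 Serpina genes, 5 were tested and 4 rose, beside 23.6% over all genes tested. For any of them near silence in the wild type the same limit holds.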

How the data were processed

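The 8 libraries were made from poly-A RNA with a SMARTer mRNA kit, per the labels' protocols. FastQC, Trimmomatic, HISAT2 and GRCm38.p6 are named in the submitters' processing notes, without versions. Neither the counting tool nor its use of strand is given in the sources used here. The authors deposited estimated counts for each transcript, which are whole numbers and were not normalised. Of 115220 transcripts, 114332 (99.23%) matched GENCODE mouse release 21 and were summed into 47434 genes. The other 888 held 0.148% to 0.17% of a library's counts and were left out. The design had assumed counts per gene.

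Knockout and wild type were compared with edgeR 4.0.16 in R 4.3.3 (quasi-likelihood F test, two-sided, TMM, filterByExpr, genotype as the only term, Benjamini-Hochberg adjustment over 15840 genes). CPM values are TMM-normalised. SE is the size of the log2 fold change over the square root of F. Libraries of 58256100 to 75025236 counts limit precision by counting error alone, and the limit for a count of 0 covers no other error. The labels gave the groups. Each library was counted as 1 replicate. No pair of libraries in a group agreed within counting noise (lowest chi-square over its degrees of freedom, 10.9), as 1 library deposited more than once would, which does not show that they came from separate cultures.

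The members and lists were chosen with earlier results of these data known. Genes named were Ehmt2, the 3 tested genes on each side of each limit, the 15 most abundant members, the 10 largest and 10 smallest changes among members that reach 5 CPM in either group, the 4 most abundant of each list, and the 4 left-out genes named singly. The text says where another gene was chosen after its values were seen, and not all genes of the rule are described, some of which are not reported here. Alternatives were DESeq2 1.42.0, limma-voom (limma 3.58.1), 3 scalings, 2 filters, a replicate block, the highest transcript alone, each library left out, other limits and the left-out genes included. On simulated data (15010 genes), the test found 85.1% of the genes changed 1.5-fold, 91% of those changed 2-fold and 100% of those changed 4-fold. Of its 198 calls 7.07% were false, more than the threshold of 0.05 aims at. Far fewer genes were changed there than the 7476 called in the data, and none of the lowest wild-type levels. These rates may therefore not hold for the data. Tables and figures used Python 3.11.15, pandas 2.3.3, numpy 2.4.6 and matplotlib 3.10.9. Promoter windows came from RefSeq on GRCm38.p6.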

Additional observations from a re-analysis of the deposited data

Results flagged for a closer look

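Of 52 groups of 4 library values checked for genes with per-library values in the report, 1 had a library set apart from the others by Dixon's criterion. Tmed10 was lowest in wild-type replicate 1, at 125.7 CPM, while the other wild-type libraries began at 130.2 CPM. The gap was 0.861 of the range of the group, above the critical value at the 95% level. Chance sets about 1 in 20 groups apart in this way. All 4 knockout libraries of Tmed10 lay above the wild type, with or without that library.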

How the results depend on the processing

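The count of members that rose stayed within 1.5 times of 64 under every alternative, from 52 with members of at least 10 CPM to 71 with the left-out genes included, and none fell. Leaving out each library in turn gave 62 to 67 risen members, 0 fallen, 6863 to 7659 genes called, a block median of 0.55 to 0.59, a flank median of -0.10 to -0.045 and a difference of 0.62 to 0.68. The block median moved by more than the spread between replicates to 0.63 with library totals alone, 0.62 without a filter, 0.59 with a filter of at least 5 CPM and 0.60 with the left-out genes. The flank median moved to -0.048 with limma-voom, -0.0017 with library totals alone, -0.057 without a filter, -0.050 with the replicate block, -0.11 with the highest transcript alone, -0.12 with genes of at least 10 CPM and 0.0058 with flanks widened to the rest of chromosome 12. The difference moved to 0.68 without a filter, 0.60 with the replicate block, 0.69 with the left-out genes and 0.55 with widened flanks. The cause was not tested, beyond the genes each setting adds or removes. Library totals alone split the 7285 calls into 4543 higher and 2742 lower genes, against 3742 and 3734, and moved the median of all genes from 0.0037 to 0.08.

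No clear pairing by replicate number was seen. Deviations of same-numbered libraries correlated between -0.29 and 0.33, and 2 of 4 knockout libraries matched their own number best. With 4 libraries per group, these values cannot show that pairing is absent. With the replicate block, 7255 genes were called and 64 members rose.

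Over the named genes, 1296 values kept their direction and side of the threshold, 21 passed it, 17 lost it and 15 changed sign. The sign changes were of values near 0. Gtf2a1 stood at 0.047 with library totals and 0.0070 with the filter of at least 5 CPM, and at -0.081 to 0.019 with each library left out. Atxn3 stood at 0.068, 0.027 and -0.093 to 0.040 under the same settings. With each library left out, Ccdc88c ranged from -0.072 (without knockout replicate 2) to 0.11, Spata7 from -0.079 (without wild-type replicate 1) to 0.18 and Degs2 from -0.24 to 0.032 (without knockout replicate 2). Alkbh1 lost its call without knockout replicate 3 (0.17). The highest transcript alone left Sel1l at 0.42, Eml1 at 0.26 and Alkbh1 at 0.31, without a call, and Evl at -0.44, with one. Nek9, outside the centromeric limit by its lowest coordinate, passed with DESeq2 (0.12) and with library totals (0.19). Depth limits the members with few counts, of which 49 could not be tested.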
